A study of Glycine max with 9 samples.

Results

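N0304-303-3 is a soybean line described by its depositors as low in palmitic, mid in oleic and low in linolenic acid. The paper also names it as a low oil content genotype. It was set against the other 8 lines of the series across all 33779 deposited genes. A gene was taken as raised when its Z-score in N0304-303-3 was 2 or more, and as reduced when it was -2 or less. This gave 326 raised genes (0.965% of all genes) and 216 reduced genes (0.639%), 542 of 33779 in total (1.60%). The Z-scores that chose these genes are therefore given as a description, with no test. A stretch of chromosome 5 between 7.84 and 8.09 Mb held 14 of the reduced genes and no raised gene, and the 528 members elsewhere are described first.

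The series holds 1 RNA-seq library of whole developing seeds for each of 9 lines, grown in growth chambers and harvested at the S6 stage of maturation, with seeds picked by weight and colour. The other lines were Jack (commodity-like oil), FAM94 (high stearic acid), M23 (mid oleic acid), R02-6268F, R05-4256, R05-591 and R08-1450 (high oil) and R95-1705 (high protein). Each line is 1 genetic background, so no trait of the line, such as low palmitic acid, can be told apart from the rest of its genome, and with 1 library per line no line has a replicate error. An exact permutation of 1 line against 8 cannot give a one-sided p below 0.111, so no p-value is printed. What was deposited per gene is its span on the Williams 82 genome, a mean over all lines of its FPKM (a read count scaled to gene length and library size) and 1 Z-score per line, in which log2 FPKM is standardized across the 9 lines. Depth per library is unknown from these values.

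Palmitic acid leaves fatty acid synthesis in the plastid when the thioesterase FATB frees it from acyl carrier protein. Chains that are not released are elongated to stearic acid, and the desaturase FAB2 turns stearic into oleic acid. In the endoplasmic reticulum FAD2 adds a double bond to oleic acid to make linoleic acid, and FAD3 adds another to make linolenic acid. Seeds at mid maturation fill their cells with storage proteins and oil bodies, and transcripts of these products dominate their RNA.

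The scale of the Z-score sets how the members read. With 9 lines, no Z-score can pass 2.67, which is reached when 1 line differs and the other 8 are equal. A Z-score of 2 places N0304-303-3 at 3.18 standard deviations (SD) of the other 8 lines from their mean, and a Z-score of 2.6 places it at 12.3. This distance is fixed by the Z-score, so wherever it is given it restates the Z-score on another scale. In all 542 members N0304-303-3 had the largest Z-score in size of the 9 lines, which any Z-score past 2 in size forces. The median distance was 3.77 SD for raised and 3.87 SD for reduced genes. A large Z-score is not a large fold change, because a gene that hardly varies among the other lines passes at a small difference. For most members the deposited values fix no FPKM per line and no fold.

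Counts past the same cutoff differed widely among the lines. The number of raised genes ran from 169 in R02-6268F (0.5%) to 1812 in R08-1450 (5.36%), and that of reduced genes from 83 in FAM94 (0.246%) to 1545 in R08-1450 (4.57%). In 4 lines there were more raised genes than in N0304-303-3, and in 4 there were more reduced genes. It was the highest of the 9 lines in 9.83% of genes and the lowest in 9.66%, ties included, where an equal share would be 11.1%. Near the cutoff the members grade into the rest. The raised gene closest to it had a Z-score of 2.00004 and the nearest gene outside 1.99986, and on the other side these values were -2.00019 and -1.99897. Between 1.9 and 2 in size lay 162 genes on the raised side and 117 on the reduced side.

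**Figure D1:**
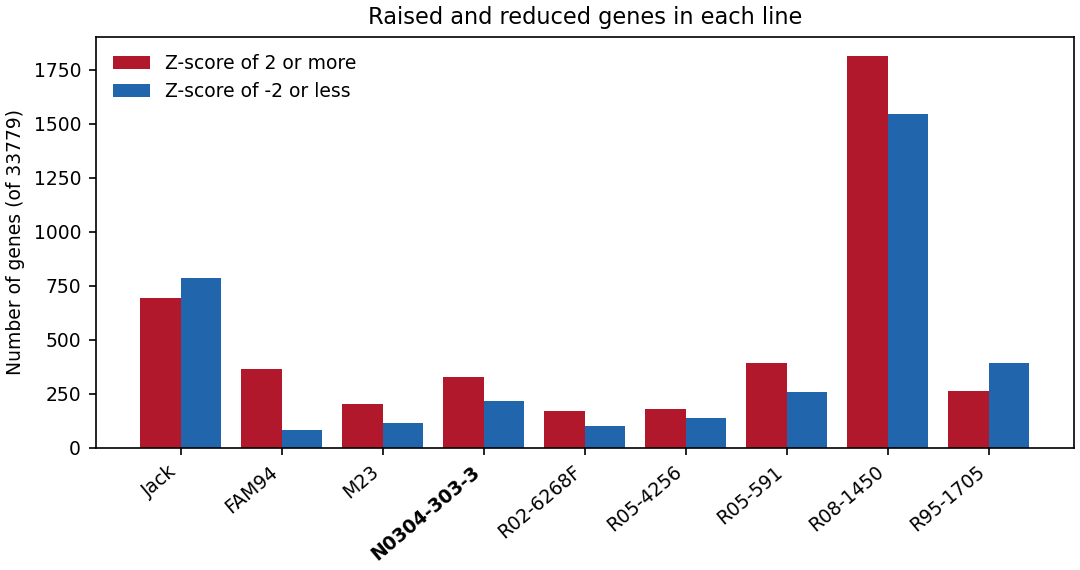
Genes at a Z-score of 2 or more (red bars) and at -2 or less (blue bars), counted (vertical axis) in each of the 9 lines, 1 library per line. N0304-303-3, in bold, had 326 and 216, while R08-1450 had 1812 and 1545.

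Gene names were available for part of the members. Of the 542, 149 could be given a gene model, 139 of them among the 142 members on chromosomes 1 to 5. Members without a gene model are given here by their span. Gene functions in the text follow the annotation of the gene model, which for soybean rests largely on likeness to Arabidopsis genes.

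Raised and reduced genes outside the interval differed in level. The median of the mean FPKM was 4.80 for the 326 raised genes and 2.36 for the 202 reduced genes (0.598% of the genes outside the interval), against 3.53 for all genes. Of the raised genes, 26.7% had a mean of 10 FPKM or more, and of the reduced genes outside the interval 8.42%. The share over all genes was 21.7%. No reduced gene reached 100 FPKM, and of the 614 genes at that level or above 4 were raised. These 4, all below 1000 FPKM, make up 1.23% of the raised genes, and the class of 100 to 1000 FPKM holds 1.63% of all genes. Over all genes 0.965% were raised and 0.639% reduced, so the 4 raised genes do not set abundant genes apart. Reduced genes were scarcer at high levels, with 21 of the 6714 genes at 10 to 100 FPKM (0.313%). The median span was 3854 bp in raised genes, 4780 bp in reduced genes outside the interval and 4125 bp over all genes. FPKM is a level per length, so these levels can be set beside each other. Of the raised genes 15, and of the reduced genes 11, share their span with another listed gene, and their reads cannot be split between the 2 with certainty.

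**Figure D2:**
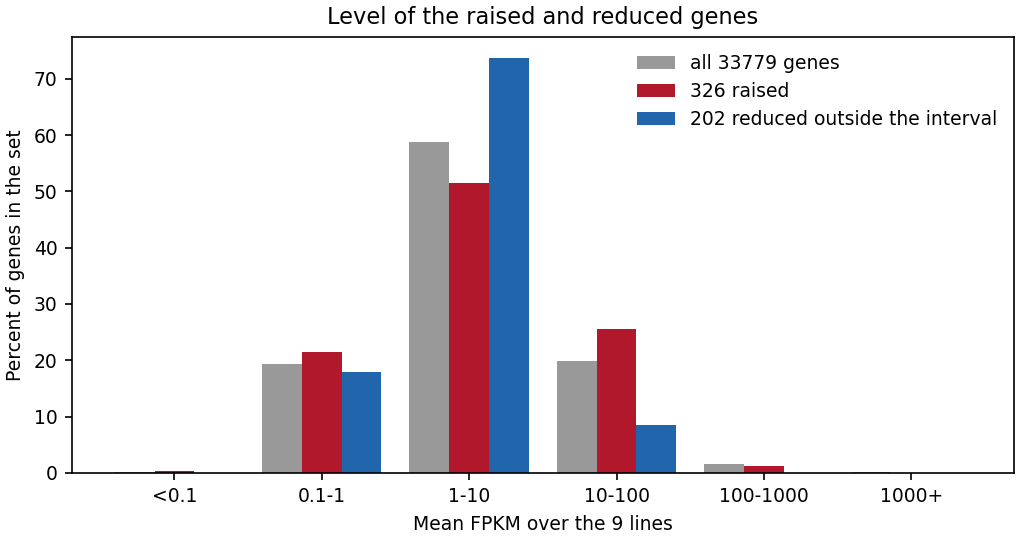
Percent of each gene set (vertical axis) in classes of mean FPKM over the 9 lines (horizontal axis), for all 33779 genes (grey), the 326 raised genes (red) and the 202 reduced genes outside the chromosome 5 interval (blue). Reduced genes were concentrated between 1 and 10 FPKM, which held 73.8% of them against 58.8% of all genes.

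The most abundant raised gene was Glyma04g36860, annotated as glyceraldehyde-3-phosphate dehydrogenase C2, a cytosolic enzyme of glycolysis, with a mean of 245 FPKM. Its Z-score was 2.23 in N0304-303-3, and the other 8 lines ran from -1.32 in R08-1450 through a median of -0.13 to 0.37 in Jack. Glyma03g41630, ubiquitin-conjugating enzyme 28, an enzyme that hands ubiquitin to target proteins, followed among the named genes with a mean of 105 FPKM. It stood at 2.11, with the other lines between -1.22 and 0.70 and a median of -0.32. In both genes N0304-303-3 was clear of the next line by more than 1 unit of the Z-score.

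Unnamed genes made up most of the abundant raised set. A gene at Gm12:11571261-11577409 had a mean of 148 FPKM and a Z-score of 2.03, with the other lines between -1.81 in R05-591 and 0.46 in R95-1705. A gene at Gm16:3592381-3597724 had a mean of 128 FPKM and a Z-score of 2.27, with the other lines between -0.96 and 0.86. Next came Gm13:25290828-25292951 at 99.8 FPKM, where N0304-303-3 stood at 2.29 and the other lines between -1.33 and 0.41. In these 3 genes the line next to N0304-303-3 was R95-1705 or R02-6268F. The other members of the 10 most abundant raised genes had means from 47.3 to 66.9 FPKM. Of these 1 is named, a merged pair of models on chromosome 3 (Glyma03g01616 and Glyma03g01630). The pair is annotated as K+ efflux antiporter 1 and a Rossmann-fold protein, at 47.3 FPKM and a Z-score of 2.12. The gene at 66.9 FPKM, Gm06:11932098-11932226, was listed at 0 in the other 8 lines, so its mean comes from N0304-303-3 alone.

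Among raised genes with a name, the largest Z-score belonged to Glyma05g08150, a homeodomain-like protein, which lies just beyond the chromosome 5 interval and is described with it. Glyma01g38890, an extra-large G-protein of the kind that carries a G-protein alpha domain in plants, stood at 2.45 with a mean of 5.38 FPKM. The other lines ran from -0.93 to 0.13 with a median of -0.23, which put N0304-303-3 at 6.45 SD of those lines from their mean. Glyma06g07980, COP9 signalosome subunit 5B, the subunit that cleaves the ubiquitin-like modifier from cullins, stood at 2.36 with a mean of 15.3 FPKM, and the other lines lay between -0.996 and 0.37. All of these genes had every other line below 0.4 in Z-score.

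Several other raised genes of this order act on RNA, translation or organelles. Glyma02g15500, a eukaryotic translation initiation factor of the eIF2A family, had a mean of 16.3 FPKM and a Z-score of 2.35, with the other lines between -1.30 and 0.19. Glyma06g08720, peroxin4, known in Arabidopsis as the ubiquitin-conjugating enzyme of peroxisomes, had 15.1 FPKM and 2.35, with the other lines again between -1.30 and 0.19. In both genes R05-591 was the lowest line. Glyma02g25024, related to the splicing factor SC35, had only 0.505 FPKM and a Z-score of 2.39. Glyma03g39070, an AT-hook DNA-binding protein, had 1.66 FPKM and 2.36. The 3 remaining genes of the 10, Glyma05g22335, Glyma06g09600 and Glyma05g04975, carry no described function and had Z-scores from 2.35 to 2.40.

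**Figure D3:**
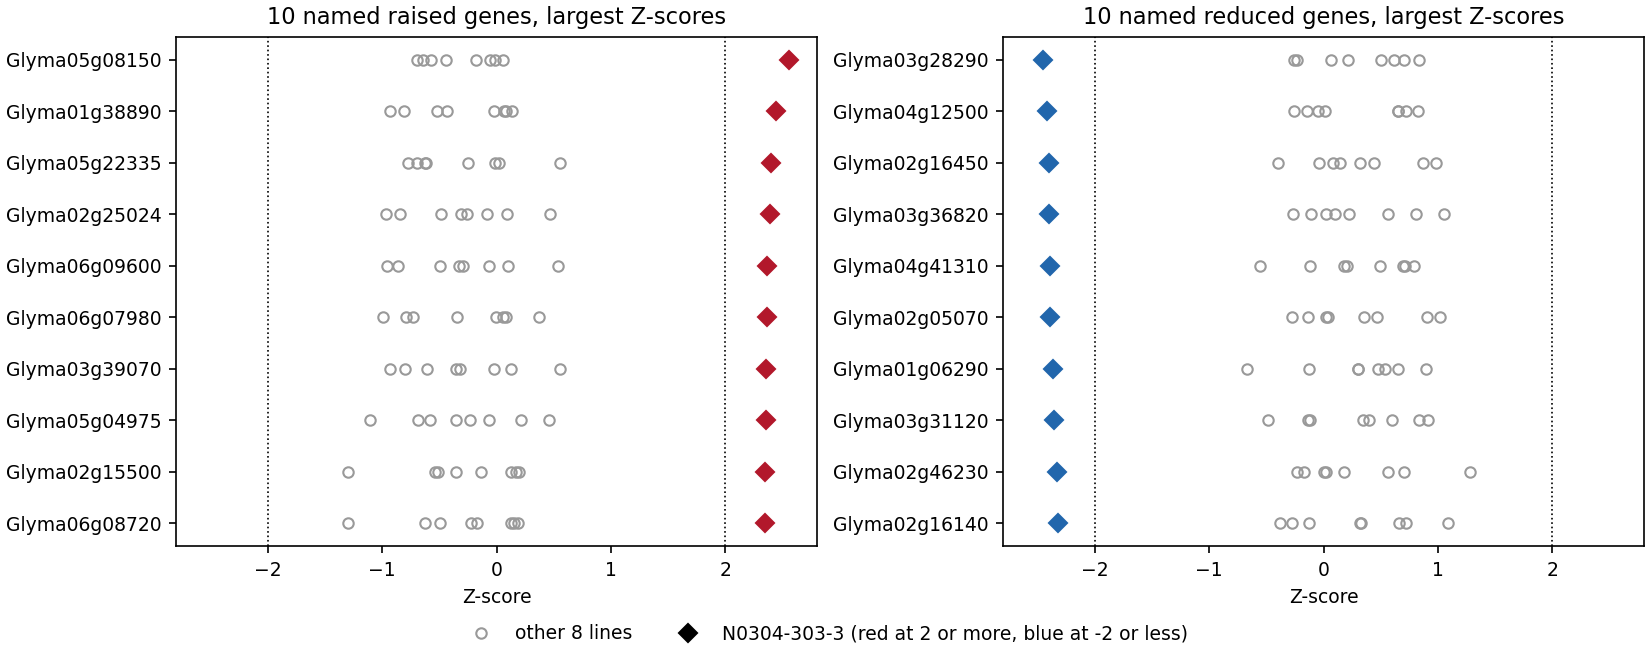
Z-scores (horizontal axis) in the 9 lines for the 10 named raised genes (left) and the 10 named reduced genes (right) with the largest Z-scores outside the chromosome 5 interval. Diamonds mark N0304-303-3, open circles the other 8 lines and dotted lines the cutoffs of 2 and -2. In all 20 genes N0304-303-3 stands apart from all 8 circles, which follows from the choice of the largest Z-scores.

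On the reduced side, the most abundant gene outside the interval was Glyma06g08160, which has no described function and spans only 132 bp, with a mean of 76.0 FPKM. Its Z-score was -2.28, and the other lines ran from -0.37 in FAM94 through 0.25 to 1.25 in Jack. A merged pair of models, Glyma06g09916 and Glyma06g09923, annotated as a conserved upstream open reading frame and a sequence-specific transcription factor, followed at 66.9 FPKM and -2.20, with the other lines between -0.76 and 1.18. The gene with the next highest mean was FAD3A.

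FAD3A (Glyma14g37350, Gm14:46647749-46651952), 1 of the omega-3 desaturases that make linolenic acid, had a mean level of 40.1 FPKM. Its Z-score was -2.31 in N0304-303-3, while the other 8 lines ran from -0.57 in R95-1705 through a median of 0.32 to 0.93 in M23. N0304-303-3 was the lowest line, at 4.86 SD of the other 8 lines below their mean. By size of Z-score FAD3A ranked 39 of the 202 reduced genes outside the interval, and by mean FPKM it was the third. Its 2 homologs did not stand out in the same way. FAD3B (Glyma02g39230, 27.9 FPKM) was highest in N0304-303-3, at 1.58, but M23 was close at 1.32. FAD3C (Glyma18g06950, 11.3 FPKM) stood at -0.094, within the range of the other lines from -1.75 to 0.98.

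The FAD2-1 and FAB2 desaturases were inside the range of the other lines. FAD2-1A (Glyma10g42470, 384 FPKM), which makes linoleic from oleic acid, stood at 0.39, while the other lines ran from -2.40 in M23 to 1.06 in Jack. Its homolog FAD2-1B (Glyma20g24530) was by far the most abundant of the group at 2846 FPKM, and its Z-score of -0.49 was the fourth lowest of the 9. The stearoyl-acyl carrier protein desaturases FAB2A, FAB2B and FAB2C had means of 35.4, 175 and 433 FPKM and Z-scores of 0.21, -0.34 and 0.063. FATB, the only other gene of this group past the cutoff, lies inside the chromosome 5 interval.

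**Figure D4:**
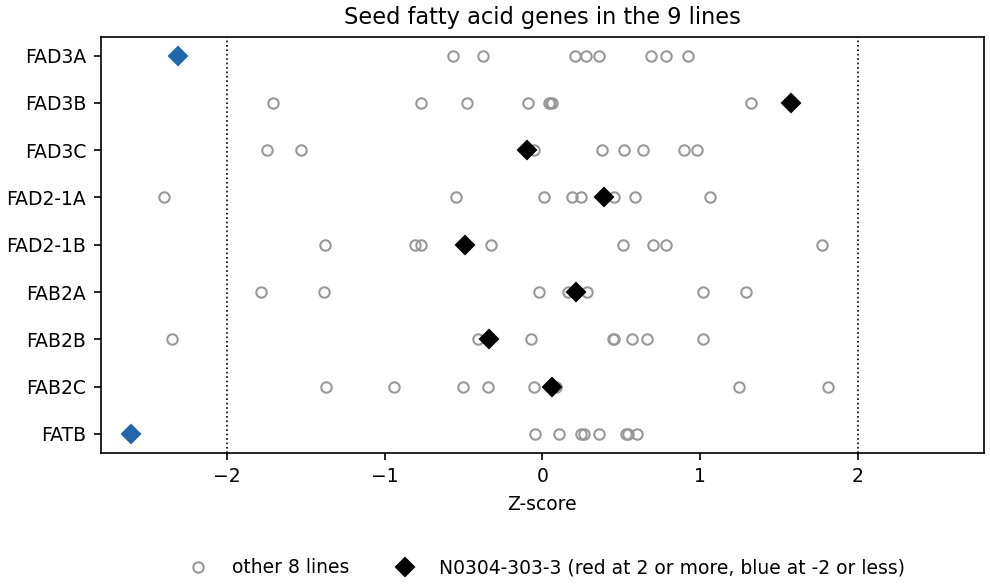
Z-scores (horizontal axis) of 9 genes of seed fatty acid synthesis and desaturation in N0304-303-3 (diamonds) and the other 8 lines (open circles), with dotted lines at 2 and -2. FAD3A at -2.31 and FATB at -2.61 lie below all circles, FAD3B at 1.58 lies above them, and the other 6 genes lie among them.

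Several metabolic and housekeeping genes followed FAD3A in level. Glyma02g46230, annotated as a GDP-galactose:mannose-1-phosphate guanylyltransferase, an enzyme type of ascorbate synthesis, had a mean of 36.0 FPKM and a Z-score of -2.33, with the other lines between -0.23 and 1.28. Glyma02g16140, of the unknown family DUF506, had 28.9 FPKM and -2.33. Glyma04g32312, of the ribosomal protein L1p/L10e family, had 24.4 FPKM and -2.12, with the other lines between -0.79 and 1.09. The remaining 4 of the 10 most abundant reduced genes outside the interval carry no name here and had means from 16.9 to 23.2 FPKM.

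By size of Z-score the named reduced genes were led by Glyma03g28290, DNA gyrase B2, a subunit of an enzyme that untwists organelle DNA, with a mean of 5.79 FPKM. Its Z-score was -2.45 and the other lines ran from -0.26 through 0.36 to 0.84. Glyma04g12500, a WD40 repeat protein, stood at -2.42, and Glyma02g16450, with a KOW domain, at -2.41. Glyma03g36820, a RING finger protein of the type that joins ubiquitin to targets, stood at -2.40 with 6.06 FPKM. Glyma04g41310, ABL interactor-like protein 2, a part in Arabidopsis of a complex that promotes actin branching, stood at -2.40 with 2.69 FPKM. Glyma01g06290, VH1-interacting kinase, stood at -2.37, and Glyma03g31120, an acyl-CoA N-acyltransferase, at -2.36 with 14.9 FPKM. Glyma02g05070, with no described function, stood at -2.39. In all of these the other 8 lines lay above -0.7.

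Past 2.5 in size there were 7 raised and 2 reduced genes outside the interval, and only Glyma05g08150 among them has a name. The lowest was a gene at Gm11:16083608-16089141, with a mean of 6.52 FPKM and a Z-score of -2.60. The other 8 lines lay between 0.011 and 0.75. This Z-score, equal to 12.5 SD below their mean, was within the range of the interval genes. The other reduced gene, at Gm07:2534970-2540798 with 5.48 FPKM, stood at -2.52, with the other lines between -0.29 and 0.71. On the raised side, Gm17:14065988-14066869 with 0.679 FPKM stood at 2.61 and Gm07:42376090-42381031 with 1.96 FPKM at 2.59. Both had the other 8 lines below 0.02.

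In 12 raised genes, 2 or more of the other lines were tied at the lowest Z-score, which places them at 0 FPKM and lets the FPKM of each line be solved from the mean. A listed 0 in such a table can also be a failed estimate. In 3 of these genes N0304-303-3 was the only line above 0. A 129 bp gene at Gm06:11932098-11932226 had 602 FPKM in N0304-303-3, a 136 bp gene at Gm08:17225198-17225333 had 37.2 FPKM, and a gene of 12933 bp at Gm10:44064735-44077667 had 6.65 FPKM. All 3 were listed at 0 in the other 8 lines. The first 2 of them have short spans, over which FPKM rests on few positions.

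In the other 9 of these genes FPKM in N0304-303-3 ran from 2.59 to 6.65. Glyma01g40790 on chromosome 1 was above 0 in 2 lines only, at 6.65 FPKM in N0304-303-3 and 3.50 in M23. A gene at Gm15:10373015-10374115 had 4.43 FPKM in N0304-303-3 and 0.989 in FAM94, the next line, a ratio of 4.48. Over the 9 genes the ratio to the next line ran from 1.90 to 4.48. The study listed genes with a mean of 0.5 FPKM or more or with expression in all lines. In 10 of the 12 genes the mean of the other 8 lines was below 0.5 FPKM, so these were listed only through their level in N0304-303-3, and they had to be high there. No reduced gene had tied lines at 0, and a gene at 0 in N0304-303-3 and in other lines as well cannot reach -2. N0304-303-3 shared a listed 0 with 1 other line in 72 genes and with 2 others in 63, and the line that shared it in the 72 genes was most often R95-1705, in 17.

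The lists of functions were formed by words in the annotation of the 1927 genes with a described name. Of these, 1668 were named in a table of genes past the cutoff in at least 1 line, so the shares among named genes, 3.89% raised and 2.65% reduced (2.04% outside the interval), are the background here and not the shares over all genes. Names cover chromosomes 1 to 5, the first part of 6 and the most abundant genes. The part of a list named in the table of genes past the cutoff differed. It was lowest for seed storage and maturation (10 of 46 genes) and next lowest for acyl lipid genes (37 of 57), so the background fits these less well. For ubiquitin and proteasome genes (63 of 64) and vesicle genes (23 of 24) it was above that of all named genes. The background is therefore too low for these lists. A gene can be in more than 1 list, as Glyma04g02510 and Glyma03g36820 are. Counts in the lists are small and no test was made.

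The list of ubiquitin and proteasome genes had 8 raised and 2 reduced of 64. Besides ubiquitin-conjugating enzyme 28 and COP9 signalosome 5B, the raised members included Glyma03g32800, an ATPase of the proteasome's regulatory particle (17.7 FPKM, Z-score 2.003), Glyma01g05080, ubiquitin-conjugating enzyme 2 (3.01 FPKM, 2.02), and Glyma03g35061, a ubiquitin ligase (10.4 FPKM, 2.204). The reduced members were both RING-type genes, Glyma03g36820 and Glyma05g00900 (0.689 FPKM, -2.01). The raised share of this list was 12.5%, and its median Z-score over all 64 genes was 0.12, against 0.039 for all named genes.

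Of 24 genes for vesicles and endomembranes, 6 were raised and 2 reduced. Both genes annotated as endoplasmic reticulum retrieval protein 1B, which returns membrane proteins from the Golgi, were among the raised, Glyma06g01400 with 19.3 FPKM and a Z-score of 2.06 and Glyma04g01370 with 13.7 FPKM and 2.03. The others were Glyma01g12340 (ARF-GAP domain 8, 11.4 FPKM, 2.25), Glyma02g08340 (a regulator of Vps4, 6.97 FPKM, 2.24), Glyma01g40930 (VPS55, 6.74 FPKM, 2.003) and Glyma04g43330 (a VPS9 domain protein, 3.52 FPKM, 2.04). The reduced members were Glyma05g14280, the membrane fusion protein VAMP726 (11.2 FPKM, -2.05, over a span of only 199 bp), and Glyma02g38000, with a Golgi localisation domain (1.02 FPKM, -2.07). Of the 6 raised genes, 4 were below 2.1 in Z-score, close to the cutoff.

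Genes of transcription and chromatin were split, with 8 raised and 8 reduced of 147, and 3 of the reduced lay in the interval. The raised members included Glyma05g01640, a homeodomain-like protein (13.3 FPKM, 2.21), and Glyma05g23660, an AT-hook protein (2.76 FPKM, 2.23). The reduced members outside the interval included Glyma03g39990, a basic helix-loop-helix protein (4.47 FPKM, -2.08), and Glyma04g12530, an HMG-box protein (3.23 FPKM, -2.02). Kinases and phosphatases had 8 raised and 5 reduced of 138, and 2 of the reduced lay in the interval. The most abundant raised member was Glyma05g36540, a protein kinase (38.5 FPKM, 2.05), while 2 raised members, Glyma04g09340 (xylulose kinase) and Glyma03g42000 (fucokinase), act on sugars.

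The acyl lipid list held 57 genes, of which 2 were raised and 3 reduced. It was formed by words such as acyl and phospholipase, so a member need not act in lipid metabolism. The names of Glyma03g31120 (N-acyltransferase) and Glyma04g04240 (HXXXD-type acyl transferase) fix no lipid substrate. Both raised members were scarce, Glyma04g02250, phospholipase D delta, at 0.063 FPKM with a Z-score of 2.24, and Glyma04g04240, an acyl transferase of the HXXXD type, at 0.297 FPKM with 2.07. The reduced members were FATB in the interval, Glyma03g31120, and Glyma05g30551, a phospholipase-like PEARLI 4 protein, at 0.691 FPKM with -2.30. FAD3A has no annotation text in the tables used for the list and is not counted in it.

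Other lists had few members. Redox enzymes had 3 raised and 6 reduced of 76, among them Glyma02g33070, the NADPH-dependent thioredoxin reductase C (0.848 FPKM, -2.17), and Glyma02g05550, a methionine sulfoxide reductase (6.66 FPKM, 2.30). Cell wall genes had 3 raised and 0 reduced of 40, led by Glyma04g07220, cellulose synthase 1, with 26.1 FPKM and a Z-score of 2.19. Translation had 2 raised and 1 reduced of 68, transport 3 and 1 of 76, chaperones 1 and 2 of 37, and disease resistance 1 and 1 of 40. The reduced members of transport and of disease resistance, and 1 of the 2 chaperones, lay in the interval. The seed storage and maturation list had 0 members of 46 and the photosynthesis list 0 of 7. Only 10 of the 46 were named in the table of genes past the cutoff, so this 0 cannot be set against the other lists.

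A few annotations were carried by 2 members in the same direction. Besides the retrieval proteins, these were SPX domain gene 2, a regulator of phosphate signalling, in Glyma04g19450 (0.853 FPKM, 2.22) and Glyma06g07260 (0.599 FPKM, 2.004), and the homeodomain-like genes Glyma05g01640 and Glyma05g08150. WD40 repeat genes, RING/U-box genes and 2-oxoglutarate-dependent oxygenases had members on both sides. Chosen after their values were seen, other raised genes of known role were Glyma04g04460, cyclin D3;1 (27.8 FPKM, 2.01), Glyma04g34830, succinate dehydrogenase subunit 4 (14.2 FPKM, 2.25), and Glyma01g09920, annotated for resistance to herbicides of acetolactate synthase (11.3 FPKM, 2.02). On the reduced side they were Glyma04g40640, the clock gene pseudo-response regulator 5 (3.99 FPKM, -2.24), and Glyma01g27120, a mitochondrial uncoupling protein (3.07 FPKM, -2.22).

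The seed's main transcripts were not among the members. None of the 100 most abundant genes passed the cutoff in N0304-303-3, which is near the share of 1.60% over all genes. Their Z-scores ran from -1.12 to 1.82 with a median of 0.34. The highest was Glyma04g01181, a dehydrin of the late embryogenesis class, with 2110 FPKM. The 31 marker genes of seed filling ran from -0.97 to 1.53. Their median was 0.13, and groups lay on both sides of 0. Glycinin genes, 4 in number, stood between 0.20 and 1.02, 6 oleosin genes between -0.15 and 1.53, and 4 conglycinin genes between -0.011 and 0.54. The caleosin gene stood at 0.89. Below 0 were 2 genes of 2S albumin (-0.62 and -0.40), 2 Kunitz inhibitors (-0.74 and -0.65) and 2 lectin entries (both -0.17). Lipoxygenase genes, 3 in number, ran from -0.97 to 0.71, and 7 genes grouped here as Bowman-Birk inhibitors from -0.91 to 0.89. The paper counts fewer protease inhibitors of both kinds among its most abundant genes, so the label of this last group is uncertain. These markers had means of 799 FPKM and more over the 9 lines. They were taken from the 100 most abundant genes, so their high means follow from that choice.

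The line next to N0304-303-3 was set against that in all genes where N0304-303-3 was highest or lowest. FAM94 was next below N0304-303-3 in 69 of the 326 raised genes (21.2%), against 19.8% of all 3318 genes in which N0304-303-3 alone was highest. For reduced genes outside the interval R95-1705 was next above in 44 of 202 (21.8%), against 20.2% of the 2871 genes in which N0304-303-3 alone was lowest, with tied genes left out. R08-1450 was next above in 7.43% of them, against 13.7%. At the far end, R05-4256 was the highest line in 20.8% of the reduced genes outside the interval, against 12.1% in the 2871 genes.

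Outside the interval, members were scattered over all 20 chromosomes. The raised share ran from 0.669% of genes on chromosome 2 to 1.42% on chromosome 5, with 1.41% on chromosome 6 and 1.34% on chromosome 17. The reduced share outside the interval ran from 0.181% on chromosome 18 to 1.06% on chromosome 19. Raised genes were 0.972% of genes in the outer 25% at each chromosome end and 0.953% in the middle 50%. In windows of 1 Mb without interval genes the number of members had a median of 1 and reached 6, between 38.5 and 39.5 Mb on chromosome 20, where 3 were raised and 3 reduced.

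Runs of 3 or more adjacent members in 1 direction occurred only once outside the interval, on chromosome 17 between 37466848 and 37494155. These 3 raised genes, none of them named here, had means of 0.569, 1.97 and 1.06 FPKM and Z-scores of 2.28, 2.34 and 2.64. The first 2 share a span, so the run covers 2 places in the genome and ends as a run when shared spans count once. In the third gene all other lines lay between -0.55 and -0.12, which set N0304-303-3 at 20.001 SD from their mean. In addition there were 6 pairs of adjacent members outside the interval, on chromosomes 7, 9, 14, 18 and 19, 5 raised and 1 reduced.

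Inside the interval 15 genes were measured over 239 kb, from 7842037 to 8080631 on chromosome 5, and 14 of them were reduced. N0304-303-3 was the lowest of the 9 lines in all 15. Their Z-scores had a median of -2.50 and ran from -2.62 to -1.72, and 8 were at -2.5 or below, against 2 of the 202 reduced genes outside. The interval was fixed with these values in view, so its counts describe it and test nothing. Levels inside were ordinary, with a median of 5.17 FPKM and a range from 0.895 to 34.1.

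FATB (Glyma05g08060, Gm05:7992846-7997074) had a mean of 16.3 FPKM and a Z-score of -2.61. The other 8 lines lay close together, from -0.046 in R05-4256 through 0.31 to 0.60 in R95-1705, and N0304-303-3 was 12.9 SD below their mean. By size of Z-score FATB was the third of all 216 reduced genes. Its measured neighbours on both sides had similar Z-scores. Glyma05g08040, a DNAJ chaperone gene, had 11.4 FPKM and a Z-score of -2.54, and Glyma05g08070, a regulatory B subunit of protein phosphatase 2A, had 12.02 FPKM and -2.60. In the latter the other lines lay between 0.089 and 0.81.

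The most abundant gene of the interval was Glyma05g08030, with no described function, at 34.1 FPKM and -2.62. Glyma05g08011, an S-adenosylmethionine-dependent methyltransferase, had the lowest Z-score of the whole table in N0304-303-3, -2.62, with 2.63 FPKM and the other lines between 0.13 and 0.64. A pair of adjacent models annotated as histone deacetylase 15, Glyma05g07991 and Glyma05g08001, stood at -2.60 and -2.50 with 6.59 and 5.17 FPKM. Glyma05g07960, related to a Fragile-X-F-associated membrane protein, stood at -2.58 with 5.41 FPKM. In these 5 genes N0304-303-3 was between 7.58 and 15.3 SD from the mean of the other lines. Glyma05g07970, with no described function, stood at -2.47 with 2.65 FPKM, and Glyma05g07980, with a duplicated homeodomain-like fold, at -2.28 with 4.18 FPKM.

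In the first gene and the last 3 genes of the interval the distances lay between 3.24 and 5.43 SD. At its start Glyma05g07926, TBP-associated factor 2, a subunit of the general transcription factor TFIID, stood at -2.02 with 6.24 FPKM, and the other lines between -0.83 and 1.16. At its end Glyma05g08110 (a LisH and WD40 protein, 0.895 FPKM), Glyma05g08120 (a sodium bile acid symporter family gene, 1.24 FPKM) and Glyma05g08140 (a leucine-rich repeat kinase, 3.28 FPKM) stood at -2.30, -2.37 and -2.36. The single gene short of the cutoff, at Gm05:7939393-7945219 with 1.94 FPKM, stood at -1.72 and split the 14 reduced genes into runs of 7 and 7. At a cutoff of 1.5 all 15 formed 1 run.

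The edges of the block were sharp in the measured genes. The neighbour before it, Glyma05g07910, a TFIIE subunit with 3.02 FPKM, stood at -0.13. The 10 genes before the interval ran from -0.83 to 1.62, and none was a member. The first gene after it, 20.7 kb from the last reduced gene, was Glyma05g08150, which was raised at 2.56 with a mean of 0.662 FPKM. Its other 8 lines lay between -0.70 and 0.058, and N0304-303-3 was 9.43 SD above their mean, the largest Z-score of any raised gene with a name. The gene after that, Glyma05g08160, stood at -0.13.

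Within 1000 kb of the centre of the interval there were 6 members among 104 genes outside it, 5 raised (4.81%) and 1 reduced (0.962%). Outside the interval as a whole, 0.598% of genes were reduced, and over all genes 0.965% were raised. Besides Glyma05g08150 the raised genes were Glyma05g07580, a serine/threonine kinase (10.9 FPKM, 2.12), Glyma05g08670, an adenine nucleotide hydrolase-like gene (37.8 FPKM, 2.01), Glyma05g08750, a DEAD box RNA helicase (12.3 FPKM, 2.28), and Glyma05g08931, of unknown function (13.9 FPKM, 2.096). The reduced one was the merged pair Glyma05g08356 and Glyma05g08363, with a BED zinc finger (2.85 FPKM, -2.23). No 2 of these 6 were adjacent.

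**Figure D5:**
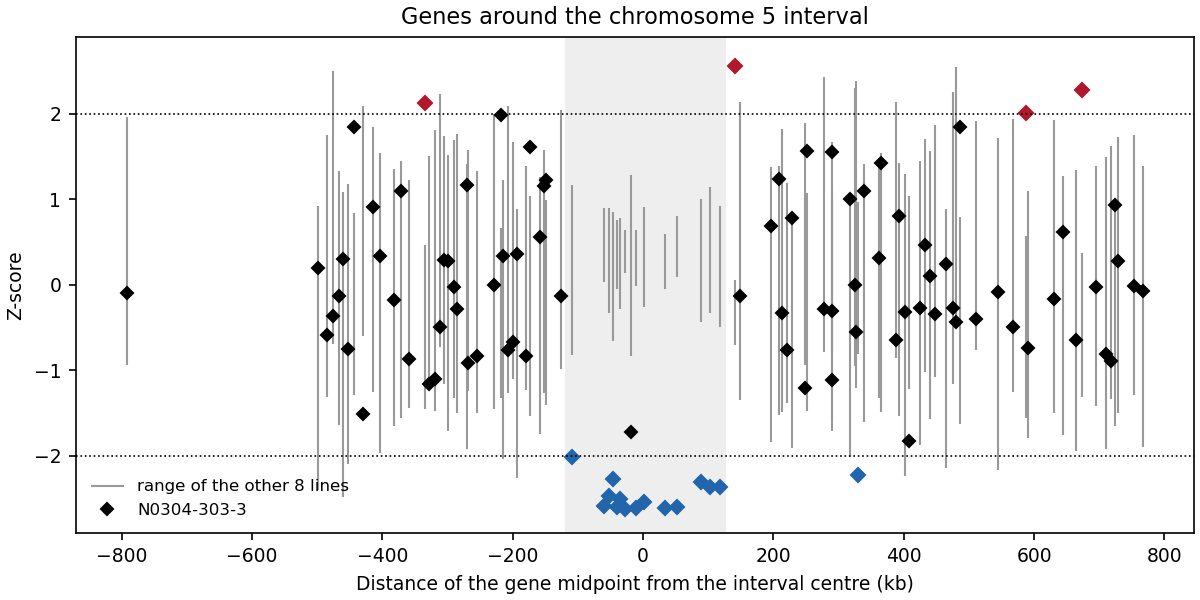
Z-score (vertical axis) of each gene against the distance of its midpoint from the centre of the chromosome 5 interval in kb (horizontal axis), for N0304-303-3 (diamonds, red at 2 or more and blue at -2 or less) and the range of the other 8 lines (grey bars). Inside the grey band, which marks the 15 interval genes, 14 diamonds are at -2.02 or lower and 1 is at -1.72, and the first gene to its right is at 2.56.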

How the data were processed

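Per the labels, RNA of S6 seeds of 9 lines was sequenced on an Illumina HiSeq with TruSeq libraries. The submitters' processing notes name Bowtie 0.12.8, TopHat 1.4.0, Cufflinks 2.1.1 and Cuffdiff 2.1.1. Only reads with a single place in the Williams 82 genome were kept, so genes with near-identical copies are uncertain. The deposited FPKM is the authors' mean over 9 lines. The score per line, deposited as a Z-score, was made by the authors from log2 FPKM, standardized within each gene. No column per line was left unused (0).

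Members and lists were chosen with earlier results of these data known. Gene models came from the study's tables, joined by span and mean FPKM (1998 of 1998, 100 of 100 and 269 of 270 genes matched), and the FAD3 and FAB2 genes from its text. Coordinates are as deposited. FPKM per line was solved on the log2(FPKM + 1) scale where lines were tied at the lowest Z-score within 1e-06. With a constant of 1 the lowest tabulated FPKM gave the highest within 0.001% in all 100 abundant genes, and with 0.9 or 1.1 in 47. The genes named are those of fatty acid synthesis, the 10 most abundant and the 10 named genes with the largest Z-scores in each direction outside the interval, members inside it and in runs, genes above 0 in N0304-303-3 alone, and examples of each function. No test was made. Alternatives were other cutoffs, filters on mean FPKM, Z-scores over 8 lines, subtraction of line medians and 1 gene per span. Steps were tested on simulated data, using Python 3.11.15, NumPy 2.4.6, pandas and Matplotlib.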

Additional observations from a re-analysis of the deposited data

How the results depend on the processing

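No paired analysis was possible because each line had 1 library. No Z-score of a named member changed sign under any alternative. Members start at 2 or more in size, so none of these alternatives could have changed a sign. A cutoff of 2.2 left 121 raised genes and 89 reduced genes (76 outside the interval, 13 inside), and 59 of 111 named members. The genes at 10 FPKM or more held 87 raised and 21 reduced genes (17 outside the interval, 4 inside) in 1 run, with median levels of 19.2 and 16.9 FPKM. A cutoff of 1.5 gave 16 runs in place of 3. With Z-scores recomputed over 8 lines, a stricter distance at the same cutoff, there were from 221 to 331 raised genes and from 155 to 226 reduced genes, of which 142 to 213 lay outside the interval and 13 to 14 inside. These held from 189 to 212 of the 326 raised and from 133 to 148 of the 216 reduced genes, and from 76 to 84 named members. Filters at 0.5 and 1 FPKM, line medians and 1 gene per span kept each count within 1.5 times.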
